A study of Mus musculus with 12 samples.

Results

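The Fc receptor genes Fcgr1, Fcgr2b, Fcgr3, Fcgr4, Fcer1g and Fcgrt were followed in bone marrow-derived dendritic cells (BMDCs) with and without CTCF, before and after LPS. They were taken by symbol, and they are 6 of the 55335 genes quantified in each library. RNA-seq was available for 12 BMDC libraries of C57BL/6 mice in 4 groups of 3 replicates, namely WT, WT with LPS (WTL), KO and KO with LPS (KOL). WT cells carried the CreER transgene alone, and KO cells carried CreER together with floxed Ctcf alleles (genotype CreER;CTCF fl/fl). CreER is a tamoxifen-dependent recombinase that is expressed here from the ubiquitous Rosa26 locus. Bone marrow of male and female mice of 8 to 12 weeks was grown for 6 days with GM-CSF, and per the study's methods BMDCs were enriched with microbeads against CD11c. The active tamoxifen, 4-OHT, was given at the start of culture to delete Ctcf, and the sources do not make clear whether WT cultures received it too. LPS, the bacterial ligand of TLR4, was given at 100 ng/ml for 3 h. Per the study's methods the 3 replicates of a condition were biological, and neither the methods nor the labels say whether this means separate animals or cultures, so the p-values measure the spread between these libraries.

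Fc receptors bind the constant part of antibodies and couple immune complexes to uptake, antigen presentation and cytokine release in dendritic cells. Among the receptors for IgG, the activating receptors encoded by Fcgr1, Fcgr3 and Fcgr4 signal through the ITAM of the common γ chain, the product of Fcer1g, and the kinase Syk. The inhibitory receptor encoded by Fcgr2b carries an ITIM that recruits the lipid phosphatase SHIP1, and the balance of both kinds sets the response of a cell to immune complexes. Fcgrt encodes the heavy chain of the neonatal Fc receptor FcRn, an MHC class I-like molecule that pairs with β2-microglobulin and protects IgG from degradation.

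On the mm10 build, 4 of the 6 genes lie near each other on chromosome 1, and Fcgr1 and Fcgrt lie on chromosomes 3 and 7. Fcgr2b (ENSMUSG00000026656.15) spans chr1:170958617-170976547 on the minus strand, and Fcgr4 (ENSMUSG00000059089.4) spans chr1:171018920-171029761 on the plus strand. Fcgr3 (ENSMUSG00000059498.13) spans chr1:171051174-171064935 on the minus strand, and Fcer1g (ENSMUSG00000058715.11) spans chr1:171229572-171234365 on the minus strand. The gap between Fcgr2b and Fcgr4 is 42.4 kb, that between Fcgr4 and Fcgr3 is 21.4 kb, and that between Fcgr3 and Fcer1g is 164.6 kb. Fcgr1 (ENSMUSG00000015947.10) spans chr3:96282909-96293969 and Fcgrt (ENSMUSG00000003420.8) spans chr7:45092990-45103851, both on the minus strand.

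The stretches before the start sites of the 3 activating receptor genes are shown because these genes did not change alike in the comparisons that follow. They are RefSeq sequences of GRCm38.p6 on the strand of the gene, without any base of an annotated exon. The stretch of Fcgr1 is chr3:96293970-96294219 on the minus strand, that of Fcgr3 is chr1:171059404-171059626 on the minus strand, and that of Fcgr4 is chr1:171018676-171018919 on the plus strand. The RefSeq start of Fcgr3 lies inside the GENCODE span given above, which a longer transcript extends, so its stretch falls in an intron of that transcript. Capitals mark matches to GAGGAA, a core that PU.1 binds and that reads TTCCTC where it lies on the other strand, and to TTCNNNGAA, the core of STAT sites.
Fcgr1: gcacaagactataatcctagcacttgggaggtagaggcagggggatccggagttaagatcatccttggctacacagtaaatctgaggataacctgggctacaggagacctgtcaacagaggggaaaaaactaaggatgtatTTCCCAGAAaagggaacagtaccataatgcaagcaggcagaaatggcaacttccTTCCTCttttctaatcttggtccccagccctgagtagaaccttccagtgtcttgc
Fcgr3: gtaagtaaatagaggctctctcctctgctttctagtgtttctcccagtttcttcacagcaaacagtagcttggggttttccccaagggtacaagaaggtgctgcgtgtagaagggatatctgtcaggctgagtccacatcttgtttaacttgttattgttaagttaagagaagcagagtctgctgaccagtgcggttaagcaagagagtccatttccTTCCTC
Fcgr4: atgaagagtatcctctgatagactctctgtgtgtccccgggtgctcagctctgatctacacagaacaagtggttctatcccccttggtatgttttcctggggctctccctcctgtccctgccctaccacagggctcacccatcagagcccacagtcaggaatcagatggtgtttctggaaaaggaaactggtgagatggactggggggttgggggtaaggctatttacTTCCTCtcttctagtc
GAGGAA was found in 3 of the 6 members, namely Fcgr1, Fcgr3 and Fcgr4, in windows from 250 bases before to 50 bases after the start. It was found in 28.3% of all 32817 RefSeq windows of this length. TTCNNNGAA was found in Fcgr1 alone, against 8.29% of all windows. Both strands were searched. The NF-κB form GGAANTTCC and AGGGGGC, a part of the CTCF core, were found in 0 of the 6 members, against 0.926% and 10.6% of all windows. In Fcgr1 the STAT core begins 109 bases and the PU.1 core 55 bases before the start, and the marked motifs do not overlap. A match of letters is a description of the window and no measurement of binding. For Fcgr2b, annotated exons cover most of the window, and its sequence is not shown.

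Total expected counts, the RSEM estimates that split ambiguous reads between genes, were 12769773 to 16586334 per library. Normalized counts are these values scaled by TMM library sizes, and TPM values are also divided by transcript length, so levels of different genes are compared in TPM only. Ctcf was at 975 to 1051 normalized counts in WT, 745 to 886 in WTL, 516 to 570 in KO and 526 to 563 in KOL. It was lower in KO than in WT by 0.87 on the log2 scale (SE 0.08, adjusted p = 3.9e-07). Reads from outside the deleted part can still be counted in KO, as can those of any cells that kept the gene. The part of either in the remaining counts was not tested. The DC markers Itgax, which encodes the CD11c that the cells were enriched on, and Cd74 were at 356 to 374 TPM and 4915 to 5259 TPM in WT. Single genes among the 8 DC markers ranged from 3.57 to 5259 TPM in WT. The 10 macrophage and monocyte markers summed to 1234 to 1329 TPM, and the summed B cell markers reached at most 1.71 TPM. The share of ribosomal RNA genes was 5.17% in WTL replicate 2 and at most 1.18% elsewhere. LPS libraries had a lower median TPM (7.05 to 7.97 against 10.3 to 11.8), and without TMM the median log2 change of all genes was -0.53 in WTL against WT, -0.40 in KOL against KO and -0.12 in KO against WT. The share of higher genes among those passing the test then changed from 49.9% to 19.5%, from 49.7% to 28.2% and from 49.8% to 36.3%, so the LPS responses below are relative to this scaling.

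In unstimulated cells, the levels per length differed widely between the members. Fcer1g was highest at 957 ± 33 TPM (SD, n = 3) in WT, followed by Fcgr2b at 391 ± 6 and Fcgr3 at 302 ± 6 TPM. Fcgrt was at 42.2 ± 4.2 TPM, and Fcgr4 and Fcgr1 were lowest at 4.54 ± 0.75 and 4.31 ± 0.90 TPM. These last did not differ beyond their spread in WT, and all the other neighbours in this order had libraries that did not overlap. In KO the order was Fcer1g at 794 ± 8, Fcgr3 at 526 ± 2, Fcgr2b at 169 ± 10, Fcgrt at 41.2 ± 1.0, Fcgr4 at 13.9 ± 0.3 and Fcgr1 at 1.35 ± 0.12 TPM, with no overlap between neighbours. Thus Fcgr3 and Fcgr2b exchanged places, and Fcgr4 and Fcgr1 no longer overlapped. In WTL the order was Fcer1g at 1055 ± 42, Fcgr2b at 159 ± 17, Fcgr3 at 138 ± 16, Fcgrt at 24.7 ± 1.3, Fcgr1 at 12.4 ± 0.8 and Fcgr4 at 3.33 ± 0.16 TPM, where only Fcgr2b and Fcgr3 overlapped. In KOL it was Fcer1g at 780 ± 45, Fcgr3 at 231 ± 32, Fcgr2b at 64.7 ± 5.0, Fcgrt at 21.2 ± 1.5, Fcgr4 at 12.9 ± 0.5 and Fcgr1 at 2.46 ± 0.16 TPM, with no overlap. RSEM's effective length of Fcgr1 was 1506 to 1772 bases in KO and 1955 to 2364 bases in the other groups, which enters its TPM.

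**Figure D1:**
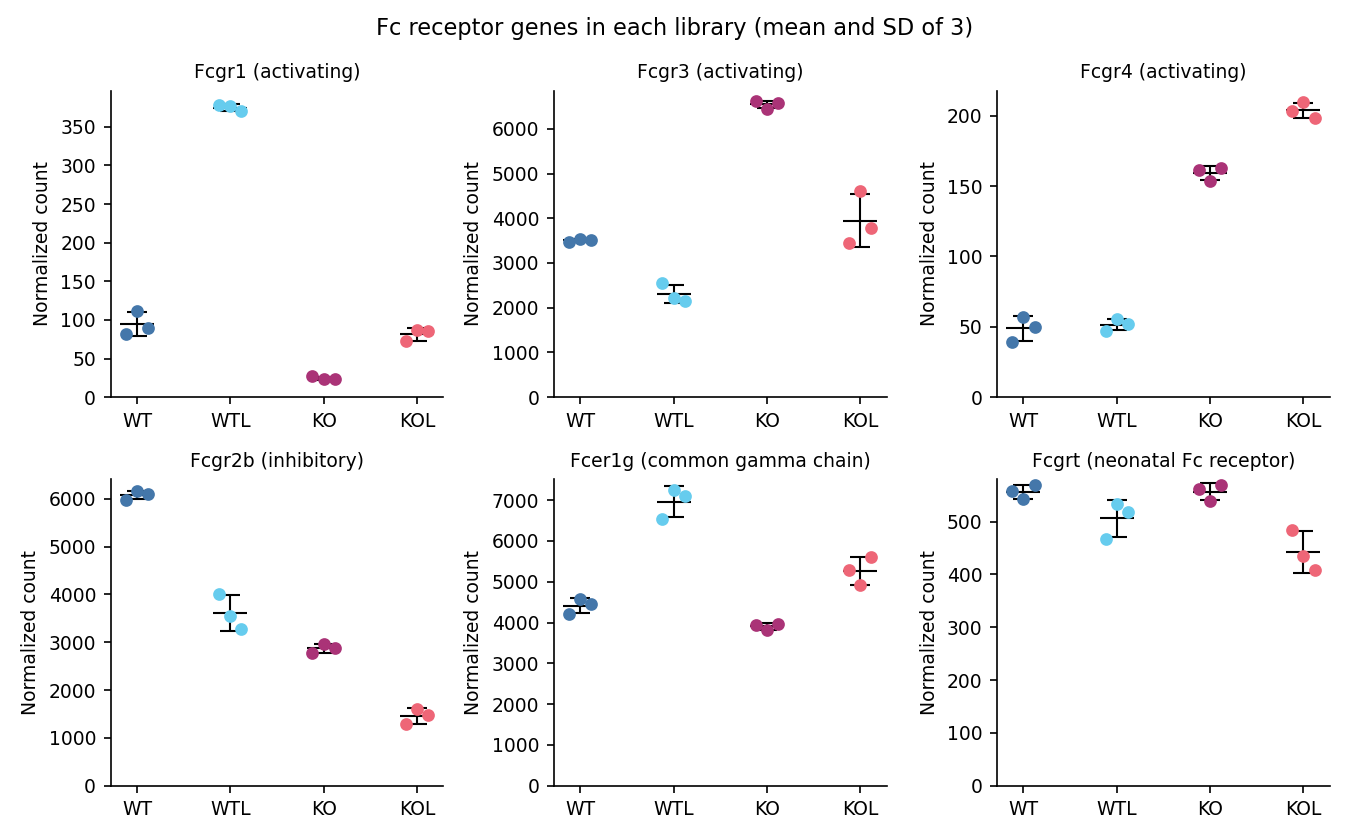
Normalized counts of the 6 Fc receptor genes in the 12 libraries. Each panel has its own vertical axis from 0, points are libraries of WT, WTL, KO and KOL, and the bars give the mean and SD of 3. The 3 KO libraries of Fcgr3 and Fcgr4 lie above, and those of Fcgr1 and Fcgr2b below, the WT libraries.

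The comparison of KO with WT asks how loss of CTCF changed these genes in resting cells. The activating receptor genes went in opposite directions, since Fcgr3 and Fcgr4 rose and Fcgr1 fell, and the inhibitory Fcgr2b fell. In all, 2 members were higher and 2 lower by the quasi-likelihood test of edgeR, with p-values adjusted over 14008 genes by the Benjamini-Hochberg method, where 22.2% of all genes tested were higher and 22.4% lower. The median log2 change was -0.09 over the members and -0.01 over all genes.

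Fcgr1, the high-affinity receptor, had 81.8, 112 and 89.0 normalized counts in the 3 WT libraries and 26.9, 24.0 and 23.2 in KO. Every KO library was below every WT library, and the counts in KO were few. The fold was 3.80 lower in KO (log2 change -1.93, SE 0.16, adjusted p = 1.8e-07).

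Fcgr3, the low-affinity activating receptor, had 3470, 3536 and 3521 normalized counts in WT and 6615, 6448 and 6570 in KO. The libraries within each group lay close together and the groups were far apart. The rise was 1.86-fold (log2 change 0.90, SE 0.10, adjusted p = 2.7e-06).

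Fcgr4, which binds IgG2 subclasses and is restricted to myeloid cells, had 39.5, 57.0 and 50.1 normalized counts in WT and 162, 154 and 163 in KO. All KO libraries were above all WT libraries, and WT replicate 1 was the lowest of its group. The rise was 3.24-fold (log2 change 1.70, SE 0.13, adjusted p = 8.9e-08).

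Fcgr2b, the inhibitory receptor, had 5974, 6152 and 6101 normalized counts in WT and 2764, 2964 and 2886 in KO. No KO library came near the WT range. The fall was 2.12-fold (log2 change -1.08, SE 0.09, adjusted p = 2.1e-07).

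Fcer1g, the signalling chain that the activating receptors share, had 4208, 4586 and 4443 normalized counts in WT and 3936, 3808 and 3967 in KO. The groups did not overlap, but the difference was small and missed the threshold (log2 change -0.18, SE 0.07, adjusted p = 0.052). It passed with DESeq2 (adjusted p = 0.011), with DESeq2's size factors in edgeR (0.035), in the fit of the WT and KO libraries alone (0.00084), without WT replicate 1 (0.024), with library sizes without TMM (0.0055) and with limma on log2(TPM + 1) (0.014). The log2 change lay between -0.16 and -0.25 when a library was left out. Of these fits only that without WT replicate 1 passed, and the adjusted p reached 0.16. The fit with a replicate block did not pass either. The fits without TMM and on log2(TPM + 1) also keep a lower median of all genes in KO, at -0.12 and -0.11.

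Fcgrt had 558, 543 and 570 normalized counts in WT and 563, 540 and 569 in KO. The groups covered the same range (log2 change 0.00, SE 0.08, adjusted p = 0.99).

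**Figure D2:**
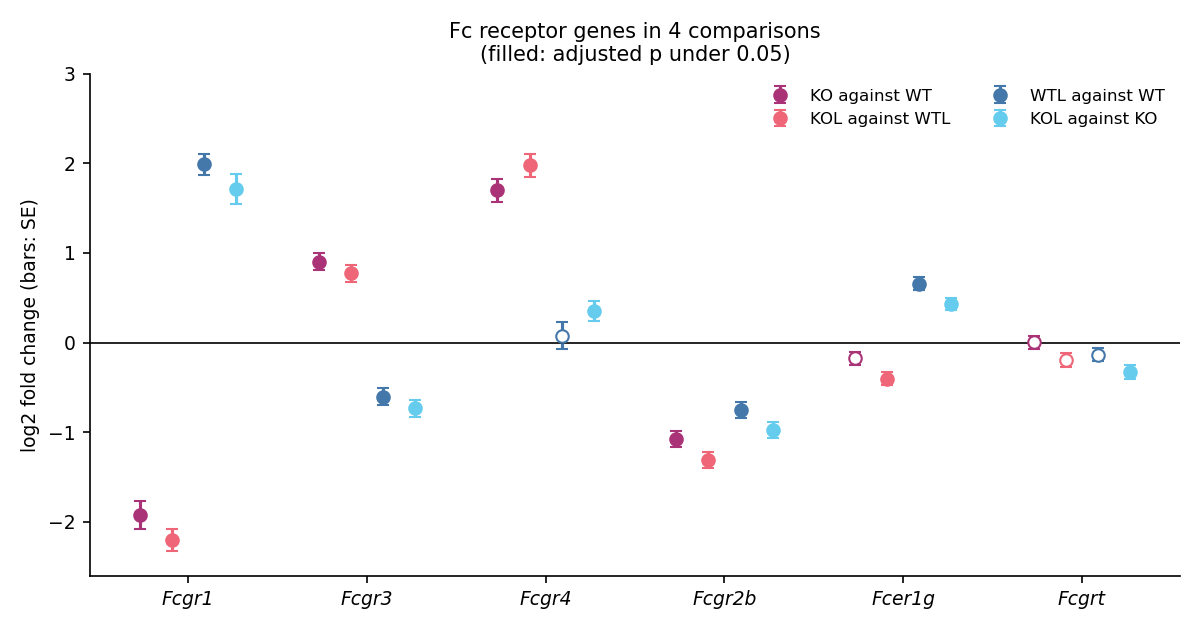
Log2 fold changes of the 6 genes in 4 comparisons by edgeR's quasi-likelihood test. Points are fitted values, bars are SEs, and filled points have an adjusted p under 0.05. Each gene has the KO effect without and with LPS on its left and the LPS response of WT and KO on its right, and the comparisons share libraries.

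In LPS-stimulated cells, KOL was compared with WTL to see the effect of CTCF loss after activation. Of the 6 members, 2 were higher and 3 lower, where 21.4% of all genes were higher and 23.3% lower. The median log2 change was -0.30 over the members and -0.03 over all genes. Fcgr1 had 378, 377 and 370 normalized counts in WTL and 72.1, 86.6 and 85.4 in KOL, and the KOL libraries overlapped those of unstimulated WT. It was 4.61-fold lower (log2 change -2.20, SE 0.12, adjusted p = 4.4e-09).

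Fcgr2b had 4016, 3540 and 3270 normalized counts in WTL and 1287, 1609 and 1474 in KOL. These groups did not overlap, and the log2 change was -1.31 (SE 0.09, adjusted p = 3.9e-08). Fcgr3 had 2545, 2227 and 2156 normalized counts in WTL and 3450, 4599 and 3771 in KOL. The KOL libraries spread widely but all lay above WTL (log2 change 0.77, SE 0.10, adjusted p = 1.4e-05).

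Fcgr4 had 47.2, 55.3 and 52.1 normalized counts in WTL and 203, 209 and 199 in KOL. Its 3.93-fold rise was the largest rise among the members in this comparison (log2 change 1.97, SE 0.13, adjusted p = 2.8e-08). Fcer1g had 6527, 7245 and 7111 normalized counts in WTL and 5285, 4918 and 5599 in KOL, again without overlap (log2 change -0.40, SE 0.07, adjusted p = 0.00029).

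Fcgrt had 467, 534 and 519 normalized counts in WTL and 485, 435 and 408 in KOL. Only KOL replicate 1 lay within the WTL range. The difference missed the threshold (log2 change -0.20, SE 0.08, adjusted p = 0.057) and passed it without WTL replicate 1 (0.021) or without KOL replicate 1 (0.020). It missed the threshold with any other single replicate left out, where the adjusted p reached 0.21.

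The response to LPS was tested within each genotype, from the same normalized counts. In WT, 2 members were higher and 2 lower in WTL, where 30.0% of all genes were higher and 30.2% lower. In KO, 3 were higher and 3 lower in KOL, where 33.6% and 33.9% of all genes were. These shares of all genes are high, and the description turns on single members.

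Fcgr1 rose 3.97-fold in WT (log2 change 1.99, SE 0.12, adjusted p = 2.2e-09) and by 1.71 on the log2 scale in KO (SE 0.16, adjusted p = 3.9e-07). No library of either LPS group overlapped its unstimulated group. Fcgr2b fell in both genotypes, with log2 changes of -0.75 in WT (SE 0.09, adjusted p = 4.4e-06) and -0.98 in KO (SE 0.09, adjusted p = 2.7e-07). Fcgr3 also fell, with log2 changes of -0.60 in WT (SE 0.10, adjusted p = 7.5e-05) and -0.73 in KO (SE 0.09, adjusted p = 9.1e-06). These 3 genes kept their direction and passed the test under every alternative scaling tried for these 2 comparisons.

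The other 3 members depended on the scaling. Fcer1g rose in WT (log2 change 0.66, SE 0.07, adjusted p = 1.4e-06) and in KO (0.43, SE 0.07, adjusted p = 7.3e-05), but without TMM the changes were 0.15 (adjusted p = 0.080) and 0.06 (adjusted p = 0.48). In TPM, Fcer1g was at 1027 to 1104 in WTL against 926 to 991 in WT, and at 727 to 808 in KOL against 786 to 802 in KO. Fcgr4 did not pass in WT (log2 change 0.08, SE 0.15, adjusted p = 0.70) and rose in KO (0.35, SE 0.11, adjusted p = 0.013). Without TMM, Fcgr4 was lower in WTL (-0.43, adjusted p = 0.017) and at -0.02 in KOL against KO (adjusted p = 0.88).

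Fcgrt did not pass in WT (log2 change -0.13, SE 0.08, adjusted p = 0.15) and fell in KO (-0.33, SE 0.08, adjusted p = 0.0017). It passed in WT without TMM (-0.64, adjusted p = 5.1e-06) and without WT replicate 2 (-0.23, adjusted p = 0.045). Its TPM was 23.3 to 25.8 in WTL against 38.9 to 47.0 in WT, without overlap.

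The LPS response of KO cells was then tested against that of WT cells as an interaction in the same edgeR fit. It passed for 0 of the 6 members, where 8.7% of all genes were higher and 8.75% lower, and 1 member had an unadjusted p under 0.05. That member was Fcer1g, whose response was lower in KO by 0.23 on the log2 scale (SE 0.10, unadjusted p = 0.037, adjusted p = 0.14). DESeq2 also called 0 members. Without TMM, 72.9% of the genes that passed the interaction were higher in place of 49.9%. Limma on log2(TPM + 1) called Fcgr1, whose response in KO was lower by 0.79 on that scale (adjusted p = 0.010), where edgeR gave a log2 difference of -0.28 (SE 0.21, adjusted p = 0.41). Limma also called it on log2(TPM + 0.1) (-0.70, adjusted p = 0.049) and on TPM scaled to a common median (-0.94, adjusted p = 0.0028). The effective length of Fcgr1, which enters TPM but not the counts, was 1506 to 1772 bases in KO and 1988 to 2364 in KOL, and its part in this difference was not tested.

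The balance of activating to inhibitory receptor RNA was described as the summed TPM of Fcgr1, Fcgr3 and Fcgr4 over that of Fcgr2b, in each library and without a test. The ratio was 0.807, 0.787 and 0.786 in WT and 3.45, 3.08 and 3.12 in KO. After LPS, the WTL libraries gave 0.970, 0.959 and 0.968, and the KOL libraries gave 3.74, 4.05 and 3.59. Inhibitory RNA was thus in excess in all 6 libraries with CTCF, and activating RNA in all 6 libraries without it. The mean ratio was 4.06 times as high in KO as in WT and 3.93 times as high in KOL as in WTL, whereas LPS went with 1.22 times the ratio in WT and 1.18 times in KO. In both genotypes all LPS libraries lay above the unstimulated ones.

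**Figure D3:**
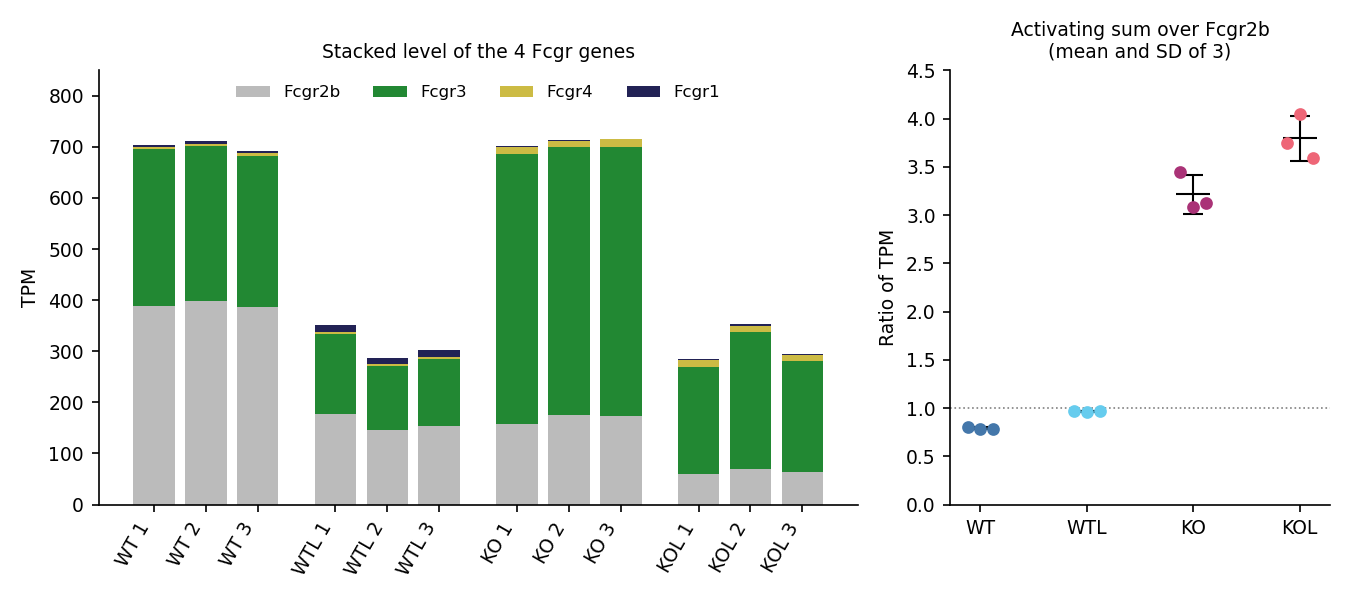
Left, stacked TPM of Fcgr2b, Fcgr3, Fcgr4 and Fcgr1 in each library. Right, the ratio of the 3 activating genes to Fcgr2b in TPM, with the mean and SD of 3 and a dotted line where both are equal. The stacks of WT and KO reach about the same height, 691 to 711 and 702 to 716 TPM, while the share of Fcgr2b differs.

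The summed level of these 4 receptor genes was 702 ± 10 TPM in WT and 710 ± 8 TPM in KO, with ranges that overlapped. Fcgr2b made up 55.3% to 56.0% of this sum in WT and 22.5% to 24.5% in KO. After LPS the sum was 286 to 351 TPM in WTL and 285 to 353 TPM in KOL, and Fcgr2b made up 50.8% to 51.0% and 19.8% to 21.8%.

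Fcgr3 dominated the activating side, with 96.6% to 97.6% of the activating TPM in WT and 97.1% to 97.3% in KO, and 89.1% to 90.6% in WTL and 93.0% to 94.4% in KOL. The ratio of Fcgr3 alone to Fcgr2b was 4.06 times as high in KO as in WT, like that of all 3 activating genes. With LPS in WT, the ratio of Fcgr3 alone was 1.12 times as high and that of all 3 genes 1.22 times, so Fcgr1 and Fcgr4 entered that change. Their own balance differed widely between the groups, since Fcgr1 was at 0.860 to 1.01 times the TPM of Fcgr4 in WT, 3.42 to 4.16 times in WTL, 0.090 to 0.104 times in KO and 0.183 to 0.199 times in KOL. Fcer1g was at 3.04 to 3.17 times the summed TPM of its 3 receptor partners in WT and 1.46 to 1.48 times in KO.

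Fcgr2b and Fcgr3 have closely related sequences, so the division of reads between them was examined. Their annotated protein-coding transcripts share 44 windows of 100 bases, 1.14% of those of Fcgr2b and 2.70% of those of Fcgr3. The longest identical run was 129 bases, and no window of 200 bases was shared. Transcripts of other types were not compared. Expected counts are given to 2 decimals, and those of both genes were not exactly whole in 11 of 12 libraries, while those of the other 4 members were exactly whole in all 12. The summed normalized counts of both genes were 9444 to 9688 in WT and 9379 to 9455 in KO, of which Fcgr3 took 36.5% to 36.8% and 68.5% to 70.5%. The exons of Fcgr2b also overlap those of the antisense gene Gm38204 over 155 bases, and no library had more than 2 counts for Gm38204. The part of read division in the opposite changes of Fcgr2b and Fcgr3 was not tested.

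Cell type markers moved between the groups as well. Over all genes tested, 22.2% were higher and 22.4% lower in KO against WT. These shares were 21.4% and 23.3% in KOL against WTL, and 30.0% and 30.2% in WTL against WT. In bulk RNA, fewer cells of a type and less RNA per cell cannot be told apart. Of the 5 neutrophil markers tested, 0 were higher and 5 lower in KO than in WT, and the summed level of all 7 was 372 to 396 TPM in WT and 193 to 225 TPM in KO. Of the 10 macrophage and monocyte markers, 5 were higher and 3 lower in KO, with sums of 1234 to 1329 TPM and 1399 to 1448 TPM. Ly6c2, a marker of classical monocytes, was higher in KO (log2 change 1.72, SE 0.09, adjusted p = 1.7e-09) and Mertk, a macrophage receptor for dying cells, was lower (-1.16, SE 0.15, adjusted p = 1.4e-05). Of the 8 DC markers, 1 was higher and 3 lower. Between KOL and WTL, 0 neutrophil markers were higher and 4 lower, with sums of 286 to 331 TPM and 342 to 436 TPM. Between WTL and WT 4 were higher and 0 lower, but the TPM sums of these groups overlapped, so this is relative to the TMM scaling. The neutrophil marker Ly6g was at 0.22 to 0.73 TPM in WT and 0 to 0.37 TPM in KO, and at 0.13 to 0.29 TPM in WTL and 0.95 to 1.81 TPM in KOL, so after LPS its level was higher without CTCF, and its counts were too few to be tested. Of the 7 mast cell and basophil markers, 2 were tested, and 1 was higher and 0 lower in KO than in WT and in KOL than in WTL. That gene was Gata2, a transcription factor gene of mast cells and of progenitors, which rose from 11.3 ± 0.7 to 80.9 ± 2.4 normalized counts in KO (log2 change 2.82, SE 0.26, adjusted p = 7.1e-07) and by 3.61 in KOL against WTL (SE 0.28, adjusted p = 1.1e-07). Hdc, the histidine decarboxylase gene, was at a log2 change of 0.26 in KO (adjusted p = 0.44) and rose with LPS in WT by 5.13 (SE 0.14, adjusted p = 9.4e-13). The list summed to 2.15 to 2.22 TPM in WT, 4.10 to 4.23 in KO, 29.2 to 35.8 in WTL and 24.7 to 36.0 in KOL, and its proteases Mcpt4 and Cma1 were listed at 0 TPM in all libraries. The part of these markers in the changes of the Fc receptor genes was not tested.

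The neighbourhood of the chromosome 1 members was examined because CTCF organizes chromatin loops over such distances. In the stretch of 476 kb from 100 kb before Fcgr2b to 100 kb past Fcer1g, 22 genes were tested. Besides Fcgr2b, Fcgr4, Fcgr3 and Fcer1g these were 18 genes, of which 7 were higher and 1 lower in KO than in WT. Over all genes tested 22.2% were higher and 22.4% lower, and the counts of neighbours that follow stand beside the same shares. Fcgr2b fell, while Fcgr4 on one side and Dusp12 and Atf6 further away on the other side rose. Dusp12, a dual-specificity phosphatase gene 73.1 kb from Fcgr2b, rose from 71.8 ± 14.8 to 254 ± 6 normalized counts (log2 change 1.82, SE 0.14, adjusted p = 9e-08), and Atf6, an unfolded protein response factor 90.8 kb away, rose by 1.23 (SE 0.13, adjusted p = 3.8e-06). Gm26620, a non-coding gene on the opposite strand whose span overlaps the start of Dusp12, had at most 1.05 counts in a WT library and 58.0 to 79.2 in KO (adjusted p = 3.7e-08), and reads of these overlapping genes are uncertain. On the side of Fcgr3, Cfap126 fell by 1.45 (SE 0.28, adjusted p = 0.00074) and Sdhc, a subunit of succinate dehydrogenase, rose by 0.31 (SE 0.07, adjusted p = 0.0014). The Fc receptor-like genes Fcrla and Fcrlb, which lie between Dusp12 and Fcgr2b, did not pass (log2 changes 0.06 and -0.12, adjusted p = 0.89 and 0.55).

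**Figure D4:**
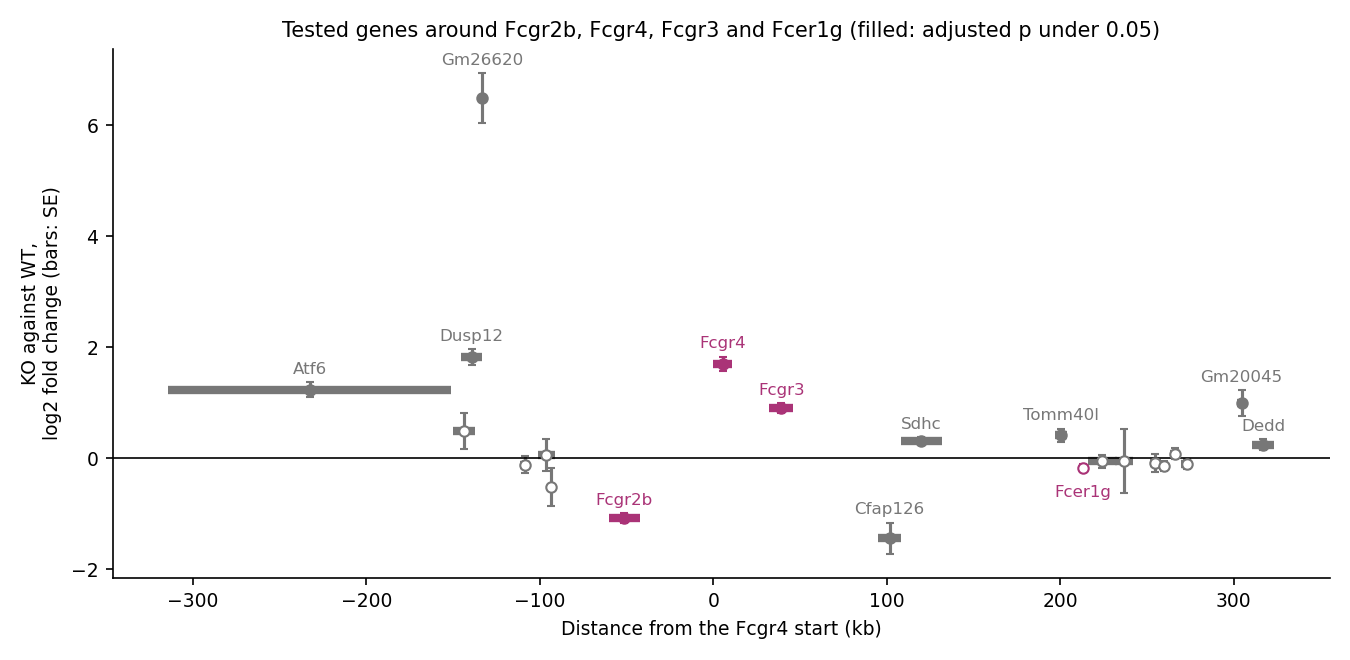
Log2 fold change of KO against WT for the 22 tested genes around the chromosome 1 members, by distance from the Fcgr4 start in kb. Thick lines span each gene, bars are SEs, filled points have an adjusted p under 0.05, and the members are in purple. Fcgr2b lies below 0 at -1.08, while Fcgr4 and Fcgr3 lie above at 1.70 and 0.90, and the fitted value of Gm26620 rests on WT libraries with at most 1.05 counts.

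Near Fcer1g, Tomm40l (log2 change 0.41, SE 0.12, adjusted p = 0.012), Gm20045 (0.99, SE 0.23, adjusted p = 0.0029) and Dedd (0.24, SE 0.09, adjusted p = 0.044) were also higher in KO, and 4 of 10 tested neighbours were in all. Within 100 kb of Fcgr1, 2 of 7 tested genes were higher and 0 lower, namely Gm20634 (0.84, SE 0.17, adjusted p = 0.0010) and the histone gene Hist2h2aa2, which has a near-identical copy and is uncertain for this reason. Within 100 kb of Fcgrt, 1 of 14 tested genes was higher, Rpl13a (0.31, SE 0.11, adjusted p = 0.039), and 2 were lower, namely Rras (-0.28, SE 0.10, adjusted p = 0.034) and Flt3l. Flt3l, the ligand of the DC growth receptor FLT3, fell from 51.2 ± 8.6 to 6.22 ± 1.61 normalized counts 25.9 kb from Fcgrt, which itself was at a log2 change of 0.00 (adjusted p = 0.99).

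The genes whose pattern was most like that of each member were ranked by Pearson's r of log2(normalized count + 1) over the 12 libraries, among 9337 other genes, as a description. The libraries share 4 groups, so an r mostly follows the group means. For Fcgr1 these were Lad1, Prag1 and Pgap2 (r = 0.99 for each). Lad1 and Prag1 averaged over 100 normalized counts in WTL only, at 519 and 233. For Fcgr2b they were Plxnb2, Txnip and Gpr155 (r = 0.99 for each), and for Fcgr3 they were Lrp6, Socs4 and Siglecf (r = 0.99 for each). For Fcgr4 they were Gm8210 and Gm13841, which had the same values and may share reads, and the tubulin gene Tubb2b (r = 0.99 for each). Gm8210 and Gm13841 averaged 0.57 normalized counts in WT and 1.2 in WTL, against 192 in KO and 327 in KOL. Tubb2b averaged 28.9, 29.3, 514 and 1444 in the same order. These genes reached the required average of 100 normalized counts only through KO and KOL, so their r mostly follows that step. For Fcer1g they were Arhgap26, Actb and Adora2b (r = 0.99 for each), and for Fcgrt they were Rarg, Ttc4 and E2f1 (r = 0.95 for each).

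The remaining genes of the Fc receptor pathway were taken from 5 lists, of which 43 genes could be tested. In KO against WT, 13 of the 43 were higher and 9 lower, and in WTL against WT, 22 were higher and 13 lower, beside the shares of all genes given above. The LPS counts and medians of the lists are relative to the TMM scaling.

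Of 12 other Fc receptors and Fc receptor-like genes, 7 were tested. In KO against WT 2 were higher and 0 lower (median log2 change -0.12), and in WTL against WT 3 were higher and 1 lower (median 0.01). Fcrl5 was higher in KO at few counts, 10 to 14 per library against 1 to 5 in WT (adjusted p = 0.0099), and in WTL at 6 to 9 (adjusted p = 0.040). Its call was lost in KO without WT replicate 1 (adjusted p = 0.054), and in WTL without WT replicate 1 or 2 or WTL replicate 1 or 2 (adjusted p = 0.052 to 0.16). Fcrls rose slightly in KO, from 682 ± 11 to 793 ± 28 normalized counts (log2 change 0.22, SE 0.07, adjusted p = 0.020), and missed the threshold when any single WT replicate or KO replicate 1 or 3 was left out (adjusted p = 0.062 to 0.12). After LPS in WT, Trim21, the cytosolic antibody receptor, rose from 305 ± 30 to 2338 ± 351 normalized counts (log2 change 2.94, SE 0.14, adjusted p = 2.3e-10). Fcmr, the IgM receptor, had 1 to 3 counts in WT libraries and 10 to 25 in WTL (adjusted p = 6.3e-05). The subunits of the high-affinity IgE receptor other than Fcer1g, Fcer1a and Ms4a2, had at most 3 counts in every library.

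Of the 9 adaptors and receptors that use the γ chain or its relatives, 8 were tested. In KO against WT 4 were higher and 2 lower (median log2 change -0.06), and in WTL against WT 5 were higher and 2 lower (median 0.67). Pira2, a paired immunoglobulin-like receptor with close homologues, rose 3.06-fold in KO, from 1509 ± 38 to 4620 ± 97 normalized counts (log2 change 1.61, SE 0.13, adjusted p = 1.6e-07). Clec4e, which encodes Mincle, fell in KO (-0.86, SE 0.13, adjusted p = 7.3e-05) and rose in WTL (2.22, SE 0.13, adjusted p = 2.6e-09), and its partner Clec4d fell in KO (-0.77, SE 0.11, adjusted p = 3.9e-05). Cd247, the ζ chain that can pair with Fcer1g, rose in WTL from 23.2 ± 6.1 to 459 ± 56 normalized counts (4.29, SE 0.23, adjusted p = 7.6e-10). The collagen receptor gene Gp6 rose from 3 to 9 counts per library in WT to 41 to 59 in WTL (adjusted p = 3.8e-06).

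All 17 genes of activating signalling were tested. In KO against WT 4 were higher and 3 lower (median log2 change 0.04), and in WTL against WT 10 were higher and 5 lower (median 0.27). Their summed TPM was 1453 to 1652 in WTL against 1681 to 1726 in WT. In KO, Prkcd rose by 1.01 on the log2 scale (SE 0.06, adjusted p = 4.2e-09) and the kinase gene Src by 0.71 (SE 0.10, adjusted p = 3.6e-05), and Vav3, an exchange factor, fell by 0.54 (SE 0.08, adjusted p = 0.00011). In WTL, Src rose by 2.73 (SE 0.10, adjusted p = 8.5e-12), and the adaptor genes Blnk and Lcp2 rose by 2.17 (SE 0.10, adjusted p = 2.3e-10) and 1.23 (SE 0.10, adjusted p = 1.2e-07).

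All 10 genes of inhibitory signalling were tested as well. In KO against WT 2 were higher and 4 lower (median log2 change 0.12), and in WTL against WT 3 were higher and 5 lower (median -0.25). Dok2, an adaptor that limits Ras signalling, rose by 1.12 in KO (SE 0.08, adjusted p = 6e-08) and Inppl1, which encodes SHIP2, rose by 0.84 (SE 0.08, adjusted p = 1.2e-06), while Dok1 fell by 0.35 (SE 0.12, adjusted p = 0.030). The fall of Dok1 missed the threshold when any single KO replicate or WT replicate 2 was left out (adjusted p = 0.053 to 0.10). After LPS in WT, Inpp5d, which encodes the SHIP1 phosphatase that Fcgr2b recruits, fell from 2368 ± 41 to 552 ± 37 normalized counts (log2 change -2.10, SE 0.07, adjusted p = 7.1e-12). Dok3 fell from 1320 ± 43 to 537 ± 17 normalized counts (adjusted p = 4.7e-10) and Dok1 rose by 1.49 (SE 0.12, adjusted p = 9e-08). B2m, the partner of Fcgrt in FcRn, rose by 0.46 in KO (SE 0.07, adjusted p = 5.8e-05) and by 0.73 in WTL (SE 0.07, adjusted p = 3.4e-07).

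**Figure D5:**
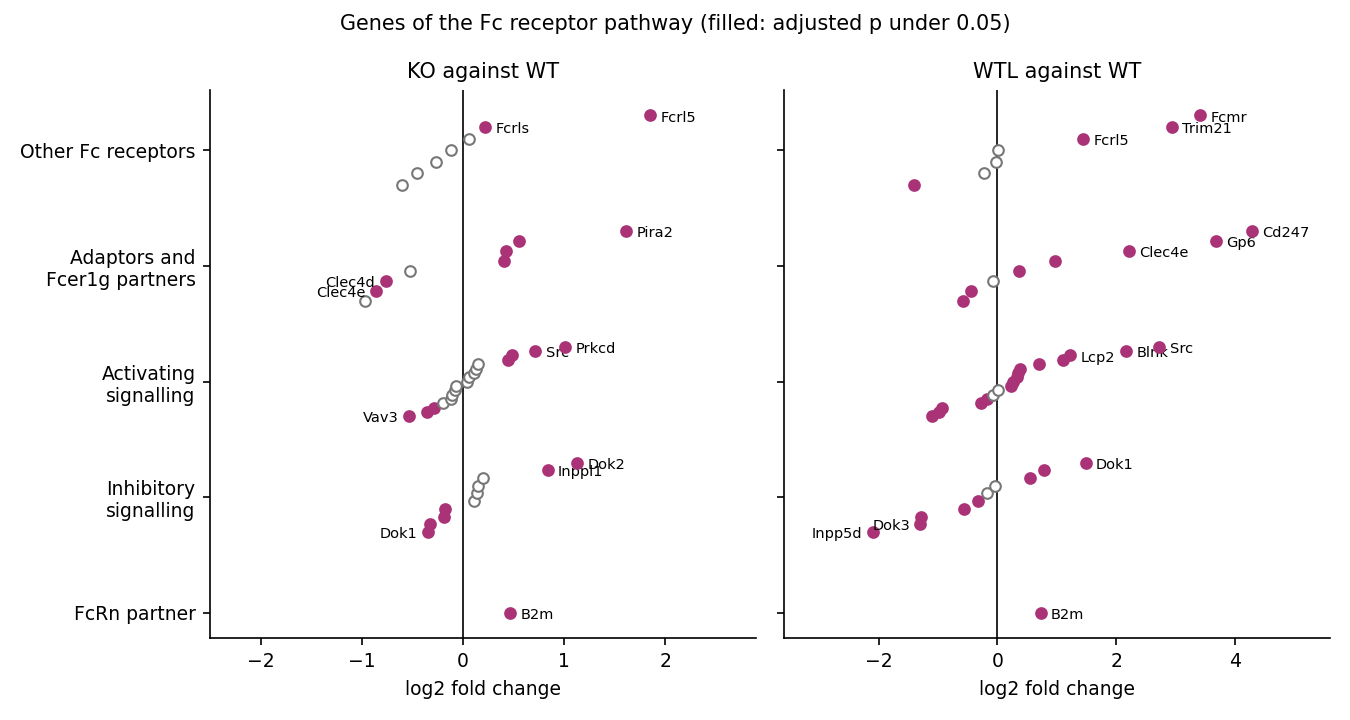
Log2 fold changes of 43 genes of the Fc receptor pathway in 5 lists, KO against WT on the left and WTL against WT on the right. Points are genes, stacked within a list by their value, filled where the adjusted p is under 0.05 and named where the naming rule applies. The lists hold genes on both sides of 0 in both comparisons, except for B2m alone in its list.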

How the data were processed

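RNA-seq of 12 BMDC libraries was analysed from the gene tables of the authors. Per the submitters' processing notes, STAR 2.5.1, RSEM and the mm10 build were used. The authors deposited an RSEM expected count, a TPM value and an effective length for each gene, and the FPKM column was not used. Whether RSEM was told the strand is not given in the sources used here. The methods name poly(A) selection and the labels rRNA depletion. Expected counts were rounded, genes filtered with filterByExpr and normalized by TMM, and edgeR 4.0.16 (R 4.3.3) was run as 1 quasi-likelihood fit of all 12 libraries, with Benjamini-Hochberg adjustment over 14008 genes and a threshold of 0.05. Errors are SDs over 3 replicates. Ratios of TPM have no test. The script was tested on simulated data.

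The members and lists were chosen with earlier results of these data known. All members were named, and in each pathway list the 3 genes with the largest change among those past the threshold in KO against WT and in WTL against WT. Genes within 100 kb were named where they passed in KO against WT, and for each member the 3 genes with the highest r among genes with at least 100 normalized counts on average. Ly6c2, Mertk, Itgax, Cd74, Ly6g, Gata2, Hdc, Mcpt4, Cma1, Fcrla, Fcrlb, Fcer1a and Ms4a2 fall outside this rule and were chosen after their values were seen. Gene positions are those of GENCODE M21, and promoters those of RefSeq (GRCm38.p6), which held all 6 members.

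Alternatives were DESeq2 1.42.0, its size factors in edgeR, no filter, a block for the replicate number, fold cutoffs, the compared libraries alone and leaving out each replicate. Limma 3.58.1 was also run on log2 TPM with a pseudocount of 1 or 0.1, where 3 libraries reached 1 TPM. Library sizes without TMM, TPM scaled to a common median and a common effective length were added after seeing the data. Python 3.11.15 with numpy 2.4.6, pandas 2.3.3 and matplotlib 3.10.9 was used for tables and plots.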

Additional observations from a re-analysis of the deposited data

Results flagged for a closer look

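Among the genes of the Fc receptor pathway named with values in the report, 7 had an LPS response that differed between KO and WT by the interaction in the edgeR fit, adjusted over 14008 genes by the Benjamini-Hochberg method, where 8.7% of all genes were higher and 8.75% lower. No Fc receptor gene of the 6 members was among them. The pathway genes had been named for large changes in KO against WT or in WTL against WT, and the interaction reuses those libraries. The number that passed is therefore not comparable with the shares of all genes. The LPS directions given here for each genotype are relative to the TMM scaling. In TPM, Prkcd was at 525.6 to 605.6 in WTL against 674.5 to 684.6 in WT. Vav3 was at 6.97 to 7.82 TPM in WTL against 8.03 to 8.86 in WT, so both were lower by that measure. In the edgeR fit, Prkcd rose with LPS in WT (log2 change 0.32) and fell in KO (-0.44), a difference of -0.77 (SE 0.08, adjusted p = 2.5e-05). Fcrls was at 0.01 in WT and fell in KO (-1.29), a difference of -1.30 (SE 0.10, adjusted p = 2.2e-06). Blnk rose less in KO (0.98) than in WT (2.17), by -1.19 (SE 0.14, adjusted p = 7.6e-05), and so did Cd247 (2.55 against 4.29), by -1.74 (SE 0.41, adjusted p = 0.0095). Dok2 fell further in KO (-1.98) than in WT (-1.28), by -0.70 (SE 0.12, adjusted p = 0.0010). Vav3 rose more in KO (1.16) than in WT (0.34), by 0.82 (SE 0.12, adjusted p = 0.00024), and Clec4d rose more in KO (1.45) than in WT (0.97), by 0.48 (SE 0.15, adjusted p = 0.037). The difference in Clec4d missed the threshold when any single KO replicate, WT replicate 1, WTL replicate 2 or 3 or KOL replicate 3 was left out (adjusted p = 0.054 to 0.095), and that in Cd247 without KO replicate 2 (adjusted p = 0.067). Among the neighbours and cell type markers named there with values, 5 more passed the same interaction. The neighbours had been named for passing in KO against WT, and the markers after their values were seen, so the same limit applies. Ly6c2 rose in WT (0.87) and was at 0.16 in KO (adjusted p = 0.12), a difference of -0.71 (SE 0.12, adjusted p = 0.0013). Itgax was at -0.10 in WT (adjusted p = 0.29) and fell in KO (-0.73), a difference of -0.62 (SE 0.12, adjusted p = 0.0020). Near the chromosome 1 members, Atf6 fell further in KO (-1.03) than in WT (-0.40), by -0.62 (SE 0.19, adjusted p = 0.036), and Sdhc rose in WT (0.23) and was at -0.13 in KO (adjusted p = 0.099), a difference of -0.35 (SE 0.09, adjusted p = 0.017). Hist2h2aa2, near Fcgr1 and uncertain for its near-identical copy, rose in WT (3.46) and was at 0.54 in KO (adjusted p = 0.21), a difference of -2.91 (SE 0.79, adjusted p = 0.021).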

How the results depend on the processing

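The falls of Fcgr1 and Fcgr2b and the rises of Fcgr3 and Fcgr4 without CTCF, and the LPS changes of Fcgr1, Fcgr2b and Fcgr3 in both genotypes, kept their direction and passed under every alternative fit, including each replicate left out. The fold cutoffs bear on the LPS counts. With a fold cutoff of 2, 1 member was higher and 0 lower in WTL against WT, and likewise in KOL against KO. With limma on log2(TPM + 1), limma on log2(TPM + 0.1) and library sizes without TMM, 1 member was higher and 4 lower in WTL against WT, and 1 was higher in KOL against KO. Under the same settings in that order, Fcgr4 was at -0.35, -0.42 and -0.43 in WTL against WT and at -0.094, -0.100 and -0.020 in KOL against KO, and Fcer1g in KOL against KO was at -0.028 with both limma fits. Those scalings leave the lower median of the LPS libraries in place. In the interaction, 1 member, Fcgr1, was lower with limma on either pseudocount and on TPM scaled to a common median, and Fcgr3 was at 0.007 without TMM. Fcgrt in KO against WT, which passed in no fit, was at -0.013 with DESeq2, -0.012 with its size factors in edgeR, -0.03 with both limma fits and -0.10 without TMM, and at 0.11 (adjusted p = 0.36) on TPM scaled to a common median. With single replicates left out it ranged from -0.053 to 0.024, and Fcgr4 in WTL against WT from -0.13 to 0.13. The activating to inhibitory ratio moved by less than the spread of its replicates under every alternative, ranging from 0.786 to 0.797 in WT and 3.10 to 3.29 in KO with a replicate left out. Most of these alternatives could not have moved it further. The scaling of libraries cancels in a ratio of TPM within a library, and leaving out 1 of 3 replicates moves a mean by less than their SD. Beyond the members, 35 of 520 refits of the other named genes no longer passed, all in Fcrl5, Fcrls, Dok1, Cd247 and Clec4d, and 485 kept direction and call.

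Replicate numbers are shared between the groups. The deviations of same-numbered libraries had a mean correlation of -0.03 over 18 pairs, from -0.29 to 0.11, with 1 of them over 0.1. With 3 replicates per group, this cannot tell whether such libraries share an animal or culture. With the replicate block, the members higher and lower were 2 and 2 in KO against WT and in WTL against WT, 2 and 3 in KOL against WTL, and 3 and 3 in KOL against KO, as without it, and no member's call changed. The calls of Fcrl5 in WTL against WT (adjusted p = 0.054) and of Clec4d in the interaction (0.058) were lost. Depth limits Fcgr1 in KO, at 23.2 to 26.9 normalized counts, and Fcgr4 in WT.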
